A study of Arabidopsis with 12 samples.

Results

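Arabinogalactan proteins are heavily glycosylated proteins of the plant cell surface, whose protein backbone is rich in hydroxyproline and carries arabinose and galactose chains. Many are held on the outer face of the plasma membrane by a glycosylphosphatidylinositol (GPI) anchor, and the family has been linked to cell expansion, root growth and reproduction in Arabidopsis. Fasciclin-like members (FLA) carry fasciclin domains, which are associated with adhesion, next to the arabinogalactan regions. All genes of the deposited table whose name begins with AGP or FLA and a number were taken, which gave 51 of 32833 genes, 30 of them AGP and 21 FLA. The rule uses gene names and no measured value, and the family was picked for description with earlier results of these data known.

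RNA-seq was made from whole Arabidopsis seedlings, 7 days old and raised under continuous white light. The 4 groups were bzip59 with 2 h of shade, bzip59 kept in white light, Col-0 with 2 h of shade and Col-0 kept in white light, each with 3 libraries. The bzip59 seedlings carry the insertion SALK_024459 in the transcription factor gene bZIP59 and come from that single line, while Col-0 is the wild type, and the R/FR ratio in shade was 0.65. Whether libraries of 1 group are separate cultures is not stated, so p-values measure only the spread between these samples, which may be technical. Levels are in TPM, a share of all transcripts that is scaled by transcript length and keeps no read depth, so the depth behind each value is unknown. Because whole seedlings were used, fewer cells of a type and less RNA per cell cannot be told apart.

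The bZIP59 transcript itself (AT2G31370, listed as POSF21) measured 7.52, 6.15 and 8.32 TPM in bzip59 shade and 3.85, 5.47 and 3.12 TPM in bzip59 white light, below every Col-0 library, where it lay between 17.5 and 26.3 TPM. Library 2 of bzip59 white light stood apart from the others. Its deviation from the group mean had a Spearman correlation of -0.57 with gene length across 19629 genes, against values from -0.27 to 0.44 in the other 11 libraries. Short genes thus had higher values in it, and the AG peptide genes described below are short, with a median gene length of 810 bp against 2316 bp for all tested genes. Marker genes of the root, root hairs, xylem, dividing cells and green tissue were all detected, and none was called in any of the 5 comparisons. Seed storage markers summed to between 6.3 and 93.4 TPM in bzip59 shade and to between 48.1 and 225 TPM in bzip59 white light. The same markers summed to between 5.01 and 12.1 TPM in Col-0 shade and to between 17.3 and 25.2 TPM in the white-light libraries of Col-0. Of these 11 markers 2 fell in bzip59 and 1 in Col-0 in shade, and their part in the results below was not tested.

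Transcript levels of the family spanned a wide range. Averaged over the 12 libraries, 11 genes reached at least 100 TPM, 23 lay from 10 to 100 TPM, 8 from 1 to 10 TPM and 9 below 1 TPM. AGP21 (AT1G55330), an arabinogalactan (AG) peptide with a very short protein backbone, was at the top with a mean of 664 TPM, followed by the AG peptides AGP15 (AT5G11740) at 432 TPM and AGP12 (AT3G13520) at 378 TPM. FLA9 (AT1G03870) came next at 314 TPM and was the FLA gene with the highest mean. The family as a whole summed to between 0.279% and 0.549% of the TPM of a library.

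**Figure D1:**
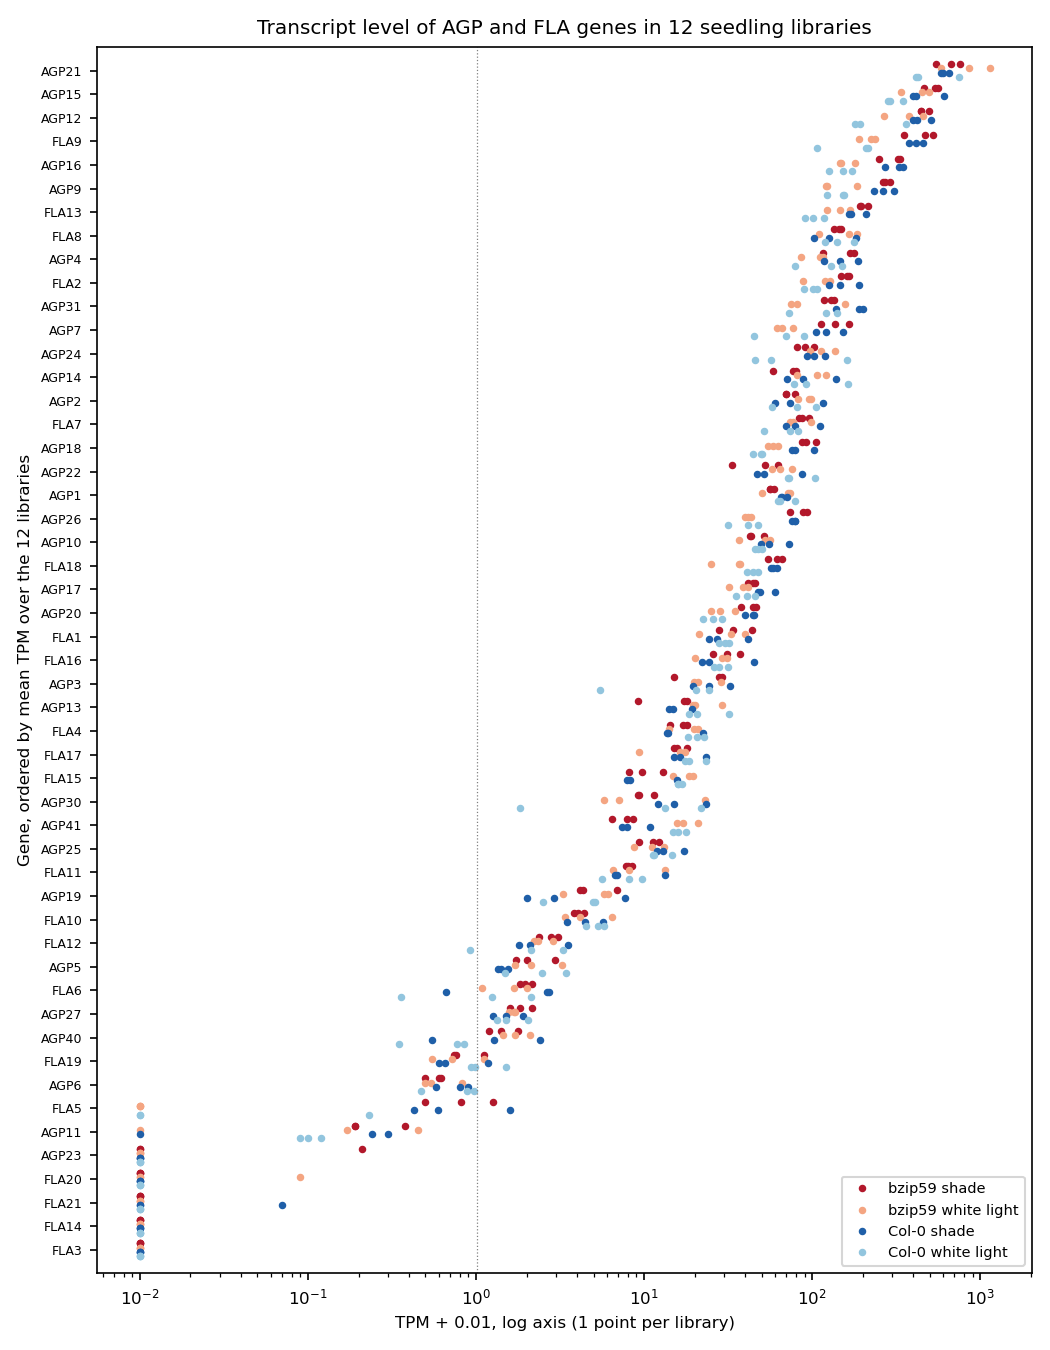
Level of each of the 51 AGP and FLA genes in every library, as TPM + 0.01 on a log axis, with genes ordered by their mean over the 12 libraries and 1 point per library coloured by group. The dotted line marks 1 TPM, the mean level that the 42 tested genes reached. AGP30 and AGP3 show a single low point each, Col-0 white light 2 at 1.81 and 5.44 TPM.

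AGP21 measured 667, 543 and 756 TPM in bzip59 shade, against 587, 1134 and 853 TPM in bzip59 white light. In Col-0 it measured 596, 655 and 586 TPM in shade, against 426, 413 and 747 TPM in white light. The ranges of the 4 groups overlapped for this gene, and its highest value was that of bzip59 white light 2. AGP15 measured 463, 558 and 540 TPM in bzip59 shade against 338, 496 and 448 TPM in bzip59 white light. Levels in Col-0 were 608, 413 and 398 TPM in shade against 284, 348 and 288 TPM in white light. All Col-0 shade libraries were above all Col-0 white-light libraries for AGP15, yet the difference did not pass (log2 0.60, limma adjusted p = 0.0669). It passed without bzip59 white light 1 (limma adjusted p = 0.046) and with the gene length trend removed (0.0326). The ranges of AGP21 and AGP15 over the 12 libraries overlapped, as did those of AGP15 and AGP12.

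The 9 genes under a mean of 1 TPM were FLA19, AGP6, FLA5, AGP11, AGP23, FLA20, FLA21, FLA3 and FLA14, and they were not tested. FLA3 and FLA14 were listed at 0 in all 12 libraries, and AGP23, FLA20 and FLA21 were above 0 in 1 library each. AGP6, AGP11, AGP23 and FLA3 are known for expression in pollen, and the 5 pollen and anther markers, such as PPME1, summed to at most 1.96 TPM in any library. FLA11 and FLA12, known from the secondary walls of stems, had means of 8.54 and 2.44 TPM. The 11 xylem and secondary wall markers summed to between 54.9 and 59.4 TPM in bzip59 shade, 30.3 and 50.2 TPM in bzip59 white light, 30.8 and 60.9 TPM in Col-0 shade, and 21.7 and 44.9 TPM in white light of that genotype.

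The bzip59 seedlings in shade were set against those in white light to find which family members responded to 2 h of low red to far-red light in the mutant. Of the 42 tested members 8 rose and 1 fell, where a gene is called at a limma adjusted p under 0.05 over all 19693 tested genes. These are 19% and 2.38% of the members, against 6.49% that rose and 3.7% that fell among all tested genes, or 10.2% called in either direction. The median log2 change of the 42 members was 0.11, the same as that of all tested genes at 0.11. With TMM factors, a rescaling of the libraries, both medians moved to 0.01 for the members and 0.02 for all tested genes. Quantile normalization gave 0.04 for the members and 0.01 for all tested genes. With the gene length trend removed the medians were 0.125 for the members and 0.008 for all tested genes. The 8 that rose were AGP26, FLA18, AGP16, AGP9, AGP18, AGP7, FLA9 and AGP20, and the one that fell was AGP41.

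Shade against white light in Col-0 put the same question to the wild type. Here 10 of the 42 members rose and 1 fell, or 23.8% and 2.38%, against 3.42% that rose and 6.5% that fell among all tested genes, or 9.92% called in either direction. The median log2 change of the members was 0.30, against -0.01 over all tested genes. The 10 that rose were AGP16, AGP26, AGP18, FLA13, FLA9, AGP9, AGP20, AGP7, AGP12 and FLA2, and AGP41 again fell.

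The shade comparisons of the 2 genotypes set different libraries against each other. Both use the spread estimated from all 12 libraries in 1 fit, so their calls are not independent. Calls in both and in the same direction were made for 8 members, which is 88.9% of the 9 members called in bzip59 and 72.7% of the 11 called in Col-0. Over all tested genes the same overlap was 1042 genes, or 51.9% of the bzip59 calls and 53.3% of the Col-0 calls. Across the 42 members the log2 changes of both genotypes had a Pearson correlation of 0.81, against 0.63 across all tested genes, with genes that are not independent replicates. Of the 42 members, 12 lay wholly above and 5 wholly below white light in bzip59, where 21.5% and 10.5% of all tested genes did so. In Col-0 13 lay wholly above and 2 wholly below, against 12.1% and 15.8% of all tested genes.

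**Figure D2:**
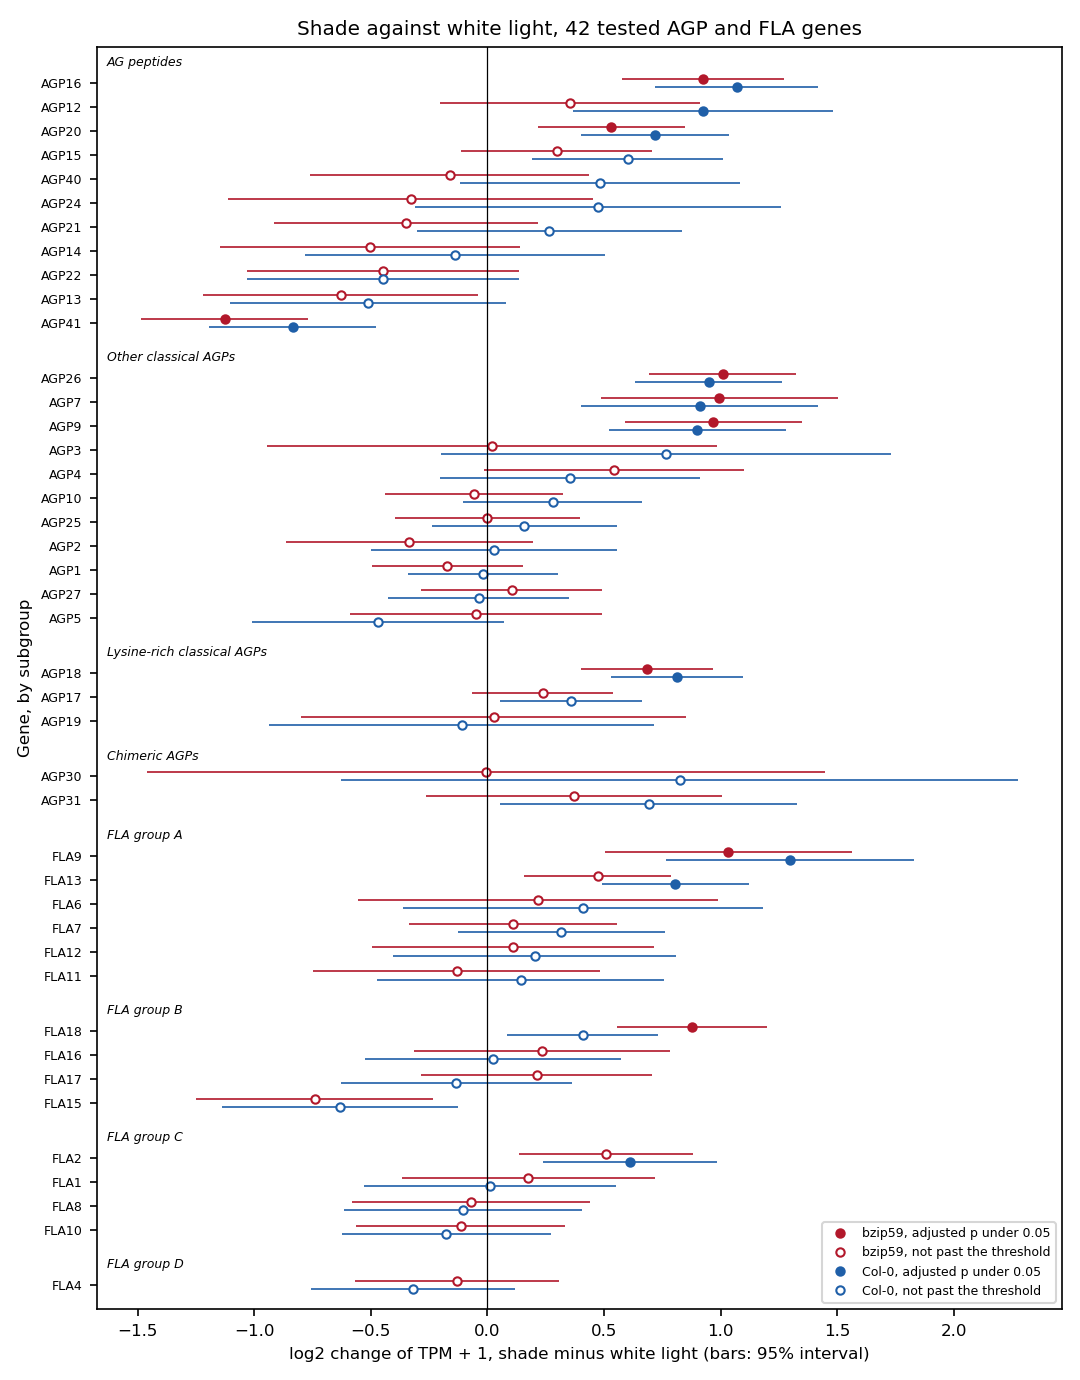
Fitted log2 change of TPM + 1, shade minus white light, for the 42 tested AGP and FLA genes by subgroup, in bzip59 (red) and Col-0 (blue), with 95% intervals. Filled points passed an adjusted p under 0.05. AGP16, AGP20, AGP26, AGP7, AGP9, AGP18, FLA9 and AGP41 are filled in both genotypes.

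Classical AGPs have a proline-rich backbone and usually a GPI anchor. Of the 11 tested ones without a lysine-rich region, the same 3 rose in both genotypes, or 27.3%. Among all tested genes 6.49% rose in bzip59 and 3.42% in Col-0. AGP26 (AT2G47930) measured 87.9, 73.5 and 92.6 TPM in bzip59 shade against 43.1, 39.6 and 41.5 TPM in bzip59 white light. In Col-0 it measured 79.1, 79 and 75.5 TPM in shade against 47.8, 31.7 and 41.7 TPM in white light. Every shade library of AGP26 was above every white-light library in either genotype, with ratios of means of 2.05 in bzip59 and 1.93 in Col-0. The limma log2 changes were 1.01 ± 0.14 (SE, adjusted p = 0.00121) in bzip59 and 0.95 ± 0.14 (SE, adjusted p = 0.00155) in Col-0.

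AGP9 (AT2G14890) measured 271, 263 and 292 TPM in bzip59 shade against 185, 120 and 123 TPM in bzip59 white light. Col-0 seedlings had 307, 234 and 265 TPM in shade against 153, 122 and 155 TPM in white light. Neither genotype showed an overlap between its shade and white-light libraries. AGP9 rose by log2 0.97 in bzip59 (limma adjusted p = 0.00468) and by 0.90 in Col-0 (limma adjusted p = 0.00657). AGP7 (AT5G65390) measured 137, 113 and 165 TPM in bzip59 shade against 65.9, 77.3 and 61.8 TPM in bzip59 white light. In Col-0 it measured 151, 105 and 120 TPM in shade against 70.2, 45.1 and 88.7 TPM in white light, again without overlap. AGP7 rose by log2 0.99 in bzip59 (limma adjusted p = 0.0202) and by 0.91 in Col-0 (limma adjusted p = 0.0286).

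The AGP7 calls depended on single libraries. The bzip59 call ended when shade library 1, shade library 3 or white-light library 3 of bzip59 was left out (limma adjusted p = 0.0734, 0.0966 and 0.0747). In Col-0 it ended when shade library 1 or 3 was left out (limma adjusted p = 0.0855 and 0.0862), or white-light library 1 or 2 (0.0609 and 0.093). It also ended with the Col-0 libraries fitted alone (limma adjusted p = 0.111), without both white-light libraries numbered 2 (0.0761) and without Col-0 shade 1 and bzip59 shade 2 (0.0992). The other 8 tested classical AGPs without a lysine-rich region, namely AGP1, AGP2, AGP3, AGP4, AGP5, AGP10, AGP25 and AGP27, were not called in either genotype. Their log2 changes lay between -0.33 for AGP2 and 0.54 for AGP4 in bzip59, and between -0.47 for AGP5 and 0.77 for AGP3 in Col-0. AGP4, also known as JAGGER for its role in synergid degeneration after fertilization, did not pass in bzip59. It lay wholly above white light there by a narrow margin, at 177, 116.3 and 167 TPM in shade against 115.9, 111 and 85.5 TPM.

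AGP18 (AT4G37450), a lysine-rich classical AGP known for its role in female gamete formation, measured 92, 87.2 and 105 TPM in bzip59 shade against 58.6, 54.4 and 62.4 TPM in bzip59 white light. Its levels in Col-0 were 102, 75.8 and 79 TPM in shade against 50, 49.5 and 44.4 TPM in white light. The shade and white-light libraries were well apart in both genotypes, and AGP18 rose by log2 0.68 in bzip59 (limma adjusted p = 0.00658) and by 0.81 in Col-0 (limma adjusted p = 0.0021). AGP17, whose mutant resists Agrobacterium, was wholly higher in shade in both genotypes without passing, with log2 changes of 0.24 in bzip59 and 0.36 in Col-0. The margin was narrow in bzip59, where its lowest shade library had 41.71 TPM and its highest white-light library 41.46 TPM. AGP19, the other lysine-rich member, had changes of 0.03 and -0.11 with overlapping libraries.

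The AG peptides were split in direction. AGP16 (AT2G46330) measured 334, 248 and 324 TPM in bzip59 shade against 147, 179 and 148 TPM in bzip59 white light. In Col-0 the gene stood at 272, 329 and 345 TPM in shade against 152, 127 and 173 TPM in white light. No shade library overlapped a white-light library, and the ratios of AGP16 means were 1.91 in bzip59 and 2.10 in Col-0. Its limma log2 changes were 0.93 ± 0.16 (SE, adjusted p = 0.00383) and 1.07 ± 0.16 (SE, adjusted p = 0.00141). Both listed AGP16 transcripts were higher in shade, the first carrying 89% and the second 11% of the gene's TPM, and the second measured 29.5, 29.9 and 27.4 TPM in bzip59 shade against 12.5, 18.3 and 21.6 TPM in bzip59 white light.

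AGP20 (AT3G61640) measured 44.5, 37.6 and 46.1 TPM in bzip59 shade against 28.4, 34.7 and 25.1 TPM in bzip59 white light. Its levels in Col-0 were 39.6, 44.2 and 44.9 TPM in shade against 25.7, 22.4 and 29.2 TPM in white light, and no libraries overlapped. AGP20 rose by log2 0.53 in bzip59 (limma adjusted p = 0.0383) and by 0.72 in Col-0 (limma adjusted p = 0.0083). The bzip59 call of AGP20 ended with TMM factors (limma adjusted p = 0.172), quantile normalization (0.149), the replicate block (0.0558) and the bzip59 libraries fitted alone (0.098). Leaving out shade library 1 or 3 of bzip59 ended it too (limma adjusted p = 0.136 and 0.151), as did leaving out its white-light library 1 or 3 (0.0568 and 0.136). The same held for shade library 2 or 3 of Col-0 (limma adjusted p = 0.0552 and 0.0587) and for white-light library 1 of Col-0 (0.0567).

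AGP12 measured 443, 442 and 492 TPM in bzip59 shade against 267, 457 and 377 TPM in bzip59 white light. Levels in Col-0 were 507, 421 and 397 TPM in shade against 179, 191 and 361 TPM in white light. Its groups overlapped in bzip59 (log2 0.35) and were apart in Col-0, where it rose by log2 0.92 (limma adjusted p = 0.0411). That call ended when any single shade library was left out, with limma adjusted p of 0.0604, 0.0692 and 0.0624 for bzip59 libraries 1 to 3, and 0.108, 0.0975 and 0.0919 for those of Col-0. White-light library 3 of bzip59 (limma adjusted p = 0.0604) and white-light libraries 1 and 2 of Col-0 (0.143 and 0.157) did the same when left out. It ended as well with the Col-0 libraries fitted alone (limma adjusted p = 0.122), without the filter (0.0677) and with TMM factors (0.0505). The same pairs of libraries left out for AGP7 ended it too (limma adjusted p = 0.116 and 0.157).

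AGP41 (AT5G24105), an AG peptide, was the member that fell. It measured 8.58, 7.88 and 6.43 TPM in bzip59 shade against 20.9, 17 and 15.8 TPM in bzip59 white light. Col-0 seedlings had 10.8, 7.33 and 7.94 TPM in shade against 15.9, 17.7 and 14.8 TPM in white light. Shade means were 0.427 of the white-light mean in bzip59 and 0.539 of it in Col-0, with no overlap. The limma log2 changes were -1.13 ± 0.16 (SE, adjusted p = 0.00136) in bzip59 and -0.84 ± 0.16 (SE, adjusted p = 0.00732) in Col-0. AGP13, AGP14 and AGP22 had negative log2 changes in both genotypes and were not called, with values of -0.63, -0.50 and -0.45 in bzip59 and -0.51, -0.14 and -0.45 in Col-0. Without Col-0 shade 1 and bzip59 shade 2 the AGP22 change in Col-0 was -0.71 and passed (limma adjusted p = 0.0457). AGP24 had a log2 change of 0.48 in Col-0 that passed only when Col-0 white light 3 was left out, at 1.02 (limma adjusted p = 0.00587). Of the 11 tested AG peptides 2 rose and 1 fell in bzip59, where 6.49% and 3.7% of all tested genes did. In Col-0 3 rose and 1 fell, where 3.42% and 6.5% of all tested genes did.

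The 2 chimeric AGPs, AGP30 and AGP31, were not called. AGP31 (AT1G28290), a wall protein that binds pectin, measured 129, 136 and 118 TPM in bzip59 shade against 156, 74.8 and 80.7 TPM in bzip59 white light. In Col-0 the gene stood at 201, 139 and 189 TPM in shade against 120, 72.8 and 141 TPM in white light. AGP30 (AT2G33790), known from roots, ranged from 1.81 to 23.2 TPM over the 12 libraries, which was 12.8-fold. Its lowest library, Col-0 white light 2, also had the lowest sums of the 7 root hair markers, 15.5 TPM against up to 79.3 TPM elsewhere, and of the 5 root markers, 43.7 TPM against up to 107 TPM. Its highest library, Col-0 shade 1 at 23.2 TPM, held the highest sums of both lists. The part of root content in the AGP30 values was not tested.

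**Figure D3:**
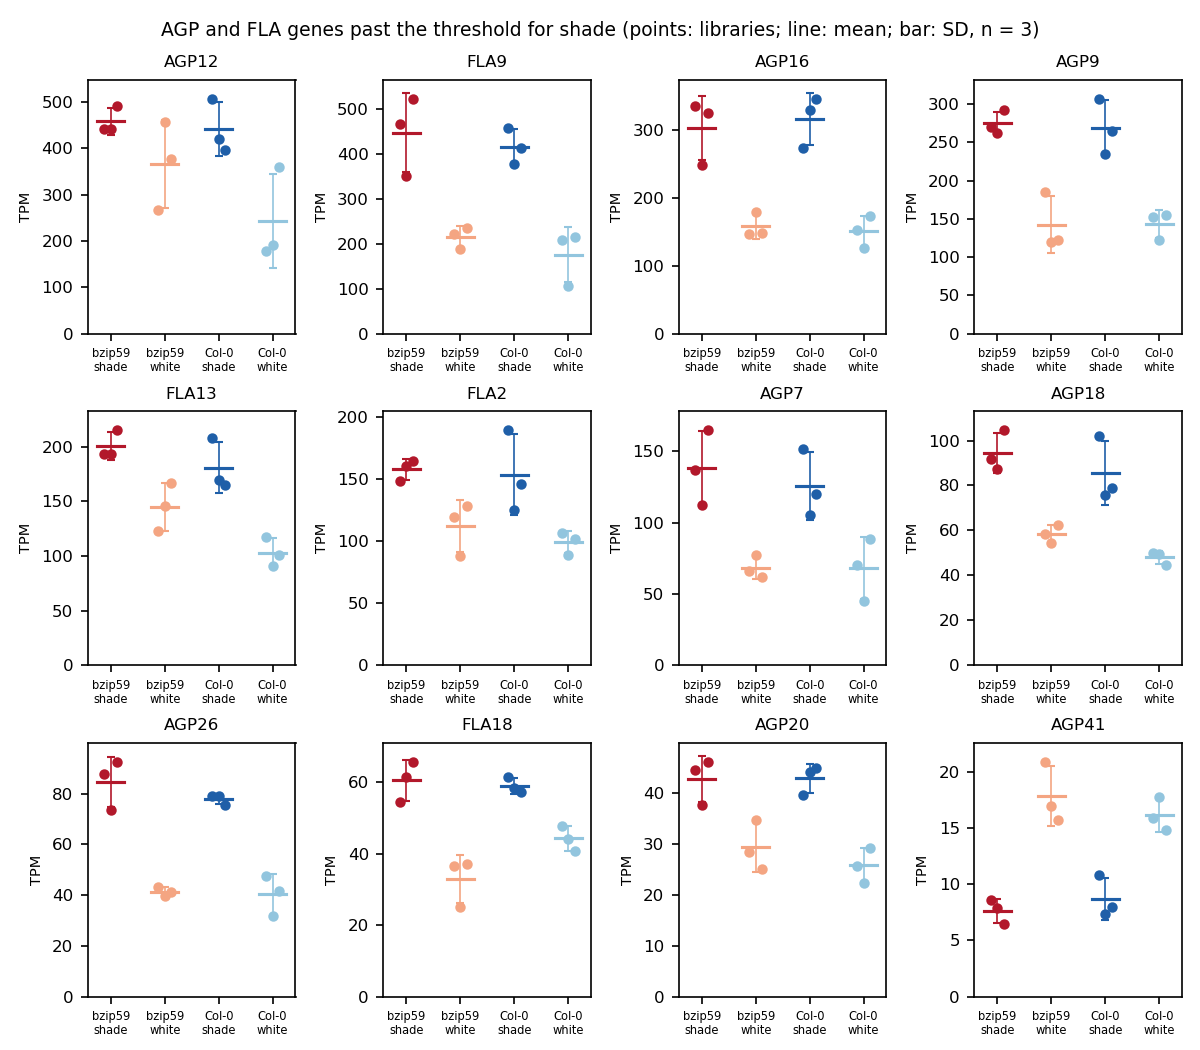
TPM of the 12 AGP and FLA genes called for shade in at least 1 genotype, with 1 point per library, a line at the mean and a bar of 1 SD (n = 3) for bzip59 shade, bzip59 white light, Col-0 shade and Col-0 white light. Shade means are higher than white-light means in every panel but AGP41, where they are 7.63 against 17.9 TPM in bzip59 and 8.69 against 16.1 TPM in Col-0.

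The FLA genes fall into groups by their domains. Group A has a single fasciclin domain and a GPI anchor, and 1 of its 6 genes rose in bzip59 and 2 rose in Col-0, against 6.49% and 3.42% of all tested genes. FLA9 measured 467, 351 and 523 TPM in bzip59 shade against 222, 189 and 236 TPM in bzip59 white light. Levels in Col-0 were 458, 377 and 413 TPM in shade against 208, 107 and 214 TPM in white light. Shade and white light were far apart in both genotypes, and the ratios of means were 2.07 and 2.36. FLA9 rose by log2 1.03 ± 0.24 (SE, limma adjusted p = 0.0206) in bzip59 and by 1.30 ± 0.24 (SE, limma adjusted p = 0.0057) in Col-0, the largest fitted rise of any member in each genotype. In bzip59 the FLA9 call ended when shade library 1, shade library 3 or white-light library 2 of bzip59 was left out (limma adjusted p = 0.0833, 0.0973 and 0.0718). In Col-0 it ended with the Col-0 libraries fitted alone (limma adjusted p = 0.0512).

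FLA13 (AT5G44130), also of group A, measured 194, 193 and 215 TPM in bzip59 shade against 123, 146 and 167 TPM in bzip59 white light. Its Col-0 levels were 208, 169 and 165 TPM in shade against 117, 90.6 and 101 TPM in white light. Shade was wholly above white light in both genotypes, and the gene rose in Col-0 by log2 0.81 (limma adjusted p = 0.00424), while the bzip59 change of 0.47 did not pass (limma adjusted p = 0.0592). That bzip59 change passed with quantile normalization, without Col-0 shade 1 (limma adjusted p = 0.0497 in each) and with the gene length trend removed (0.0391). The difference between the genotypes' responses was -0.33, with a 95% interval from -0.78 to 0.11 (limma adjusted p = 0.634). The other 4 genes of group A, FLA6, FLA7, FLA11 and FLA12, had log2 changes from -0.13 to 0.22 in bzip59 and from 0.14 to 0.41 in Col-0.

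Group B holds larger proteins with a pair of fasciclin domains. FLA18 (AT3G11700) measured 54.5, 61.3 and 65.7 TPM in bzip59 shade against 36.5, 25 and 37.1 TPM in bzip59 white light. Col-0 seedlings had 61.5, 58.2 and 57.2 TPM in shade against 47.8, 44.2 and 40.9 TPM in white light. Shade levels were close in both genotypes, and the white-light levels of bzip59, in TPM without rescaling, all lay below those of Col-0. The latter was so for 3083 of the 19693 tested genes. FLA18 rose by log2 0.88 ± 0.15 (SE, limma adjusted p = 0.00332) in bzip59, and its Col-0 change of 0.41 did not pass (limma adjusted p = 0.114). With TMM factors the Col-0 change passed (limma adjusted p = 0.0362), as it did with the gene length trend removed (0.0231), without bzip59 white light 2 (0.0199) and without both white-light libraries numbered 2 (0.0475). The difference of the responses was 0.47, with a 95% interval from 0.01 to 0.93, and had the smallest unadjusted p of the family at 0.0451, which failed the correction (limma adjusted p = 0.617). FLA15 lay wholly below white light in both genotypes, at 8.16, 12.9 and 9.69 TPM in bzip59 shade against 19.6, 14.8 and 18.6 TPM in bzip59 white light. In Col-0 it measured 15.7, 8.27 and 7.89 TPM in shade against 16.9, 15.9 and 15.9 TPM in white light. These FLA15 changes of log2 -0.74 in bzip59 and -0.63 in Col-0 did not pass (limma adjusted p = 0.0651 and 0.12), and without Col-0 shade 1 both did (0.0158 and 0.0078). Without both Col-0 shade 1 and bzip59 shade 2 the FLA15 changes passed as well (limma adjusted p = 0.00672 in bzip59 and 0.00505 in Col-0). In bzip59 the FLA15 change also passed with TMM factors (limma adjusted p = 0.0166), quantile normalization (0.0114) and the gene length trend removed (0.0121).

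Group C holds members with paired or single fasciclin domains. Of its 4 tested genes 1 rose in Col-0 and 0 were called in bzip59. Among all tested genes 3.42% rose in Col-0, and 10.2% were called in either direction in bzip59. FLA2 (AT4G12730) measured 148, 160 and 164 TPM in bzip59 shade against 119, 87.9 and 128 TPM in bzip59 white light. In Col-0 the gene stood at 189, 125 and 146 TPM in shade against 106, 89 and 101 TPM in white light. It rose in Col-0 by log2 0.61 (limma adjusted p = 0.043) and had a change of 0.51 in bzip59 that did not pass (limma adjusted p = 0.0814), without overlap in either genotype. That call ended when shade library 1 or 3 of Col-0 was left out (limma adjusted p = 0.122 and 0.113), or any of its white-light libraries 1 to 3 (0.0724, 0.149 and 0.074). It ended as well without bzip59 shade library 1, 2 or 3 (limma adjusted p = 0.0623, 0.0642 and 0.0659), with the Col-0 libraries fitted alone (0.0955) and with no filter (0.0584). Leaving out both white-light libraries numbered 2 ended it (limma adjusted p = 0.0647), as did leaving out Col-0 shade 1 with bzip59 shade 2 (0.149). FLA1, known from shoot regeneration in culture, FLA8 and FLA10 had log2 changes between -0.18 and 0.18 in both genotypes. FLA4, also called SOS5, which acts in root cell expansion with the FEI receptor kinases, was the tested gene of group D, with changes of -0.13 in bzip59 and -0.32 in Col-0, neither of them called.

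FLA5 (AT4G31370) lay under the filter of 1 TPM but was seen mostly in shade. It was listed at 0.8, 1.25 and 0.49 TPM in bzip59 shade and at 0 in the 3 bzip59 white-light libraries. In Col-0 it was listed at 1.58, 0.58 and 0.42 TPM in shade, and at 0, 0 and 0.22 TPM in white light. With no filter the bzip59 change passed (limma adjusted p = 0.037) and that in Col-0 did not (0.0652).

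**Figure D4:**
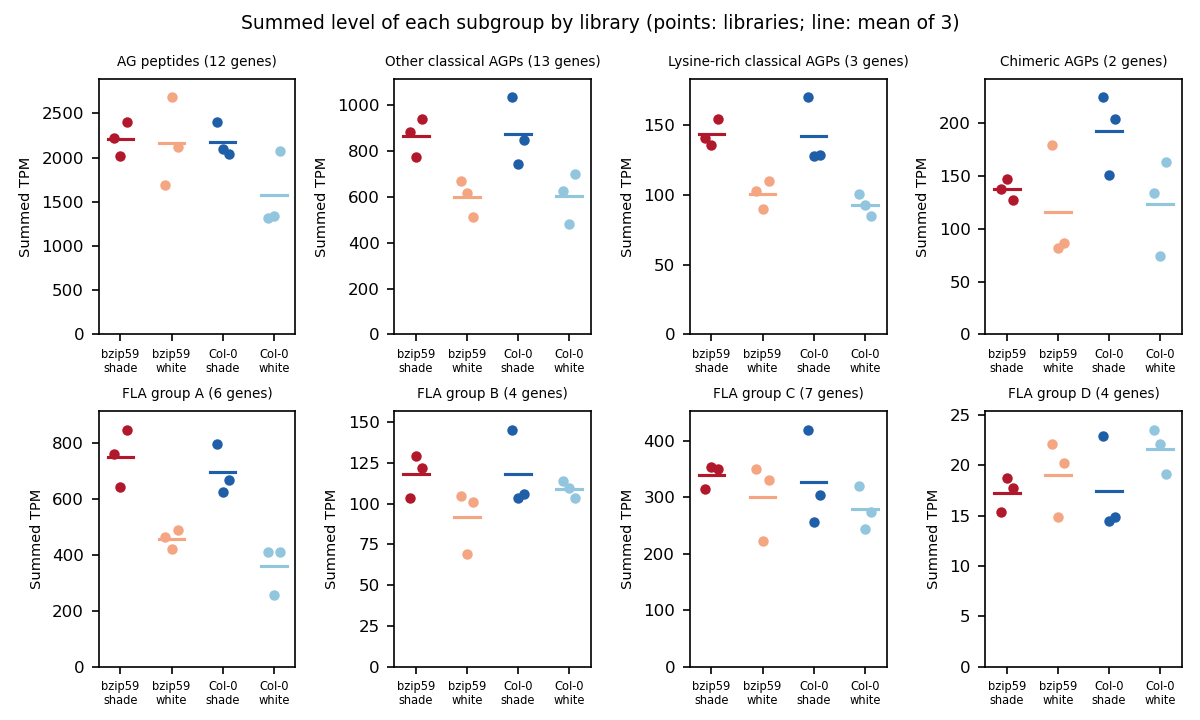
Summed TPM of each subgroup of AGP and FLA genes in every library, with 1 point per library and a line at the mean of 3, for bzip59 shade, bzip59 white light, Col-0 shade and Col-0 white light. FLA group A lies between 641 and 847 TPM in bzip59 shade against 420 to 490 TPM in bzip59 white light, and between 625 and 795 TPM in Col-0 shade against 256 to 412 TPM in Col-0 white light.

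Summed over all 51 genes, the family reached 4588 ± 372 TPM in bzip59 shade against 3853 ± 313 TPM in bzip59 white light, and 4547 ± 583 TPM in Col-0 shade against 3165 ± 612 TPM in its white light (SD, n = 3 each). The white-light sums of the genotypes overlapped, with bzip59 between 3587 and 4198 TPM and Col-0 between 2616 and 3825 TPM. AG peptides held the largest sum of any subgroup, 2215 ± 192 TPM in bzip59 shade against 2166 ± 495 TPM in bzip59 white light, and 2178 ± 195 TPM in Col-0 shade against 1577 ± 428 TPM in Col-0 white light (SD, n = 3 each). In bzip59 white light the sum of the AG peptides was 2681 TPM in library 2, against 1693 and 2124 TPM in the other libraries.

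The genotype comparisons asked whether the family differed between the mutant and the wild type at either light. No member was called in white light or in shade, where 0.0254% and 0.0406% of all tested genes were called by limma. At an unadjusted p under 0.05 limma gave 6 of the 42 members in white light, against 15.5% of all tested genes, and 0 members in shade against 2.71%. The 6 were FLA13, FLA18, AGP21, AGP40, AGP15 and AGP12, with a smallest limma adjusted p of 0.228. AGP21, AGP15 and AGP12 had their highest bzip59 white-light value in library 2, in which short genes had higher values. AGP40 was low, with means of 1.74 TPM in bzip59 white light and 0.65 TPM in Col-0 white light. FLA13 was wholly higher in bzip59 white light than in Col-0 white light, with means of 145 ± 22.1 against 103 ± 13.4 TPM (SD, n = 3 each). In TPM without rescaling, FLA18 was wholly lower, at 32.9 ± 6.8 TPM in bzip59 white light against 44.3 ± 3.44 TPM in Col-0 white light (SD, n = 3 each). In white light 3 of the 42 members lay wholly higher and 2 wholly lower in bzip59, against 544 and 3083 of 19693 tested genes. In shade 1 member lay wholly higher and 4 wholly lower, against 900 and 1023 of all tested genes.

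For the genotype differences the median member had a 95% interval of 0.51 log2 on either side of its estimate, and the widest intervals belonged to AGP30. The median genotype change of the members was 0.07 in white light, against -0.16 over all tested genes, and 0.03 in shade, against -0.003 over all tested genes. With TMM factors the white-light medians were 0.24 for the members and -0.01 for all tested genes. They were 0.16 and -0.02 with quantile normalization, and 0.14 and -0.003 with the gene length trend removed.

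**Figure D5:**
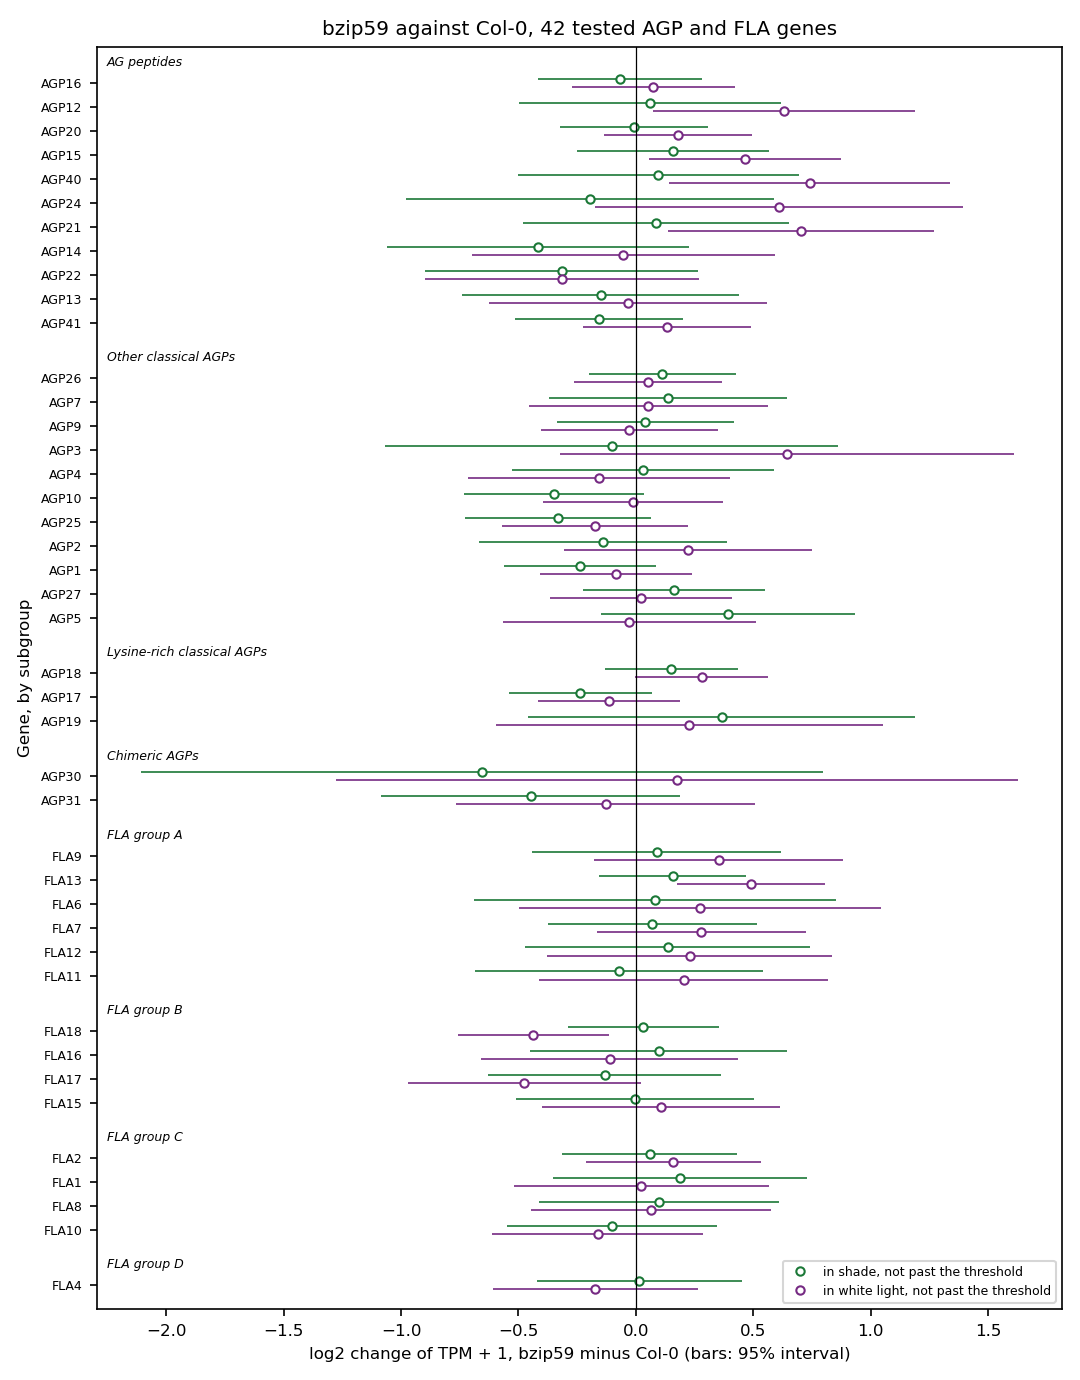
Fitted log2 change of TPM + 1, bzip59 minus Col-0, for the 42 tested AGP and FLA genes by subgroup, in shade (green) and in white light (purple), with 95% intervals. All points are open because no member passed an adjusted p under 0.05 in either light.

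The interaction, which is the shade change in bzip59 less that in Col-0, was called for 0 members and for 0% of all tested genes by limma, and 1 member had an unadjusted p under 0.05 against 8.01% of all tested genes. All 11 tested AG peptides had a negative interaction, with a median of -0.31 against 0.15 over all tested genes, and none passed. The 6 genes of FLA group A and the 2 chimeric AGPs were also all negative, with medians of -0.24 and -0.58. Of the 42 members 28 were negative, against 6226 of the 19693 tested genes. This contrast depended on the scaling. The median interaction was -0.14 for the members against 0.15 over all tested genes in the main fit. It was -0.29 against 0.01 with TMM factors, -0.20 against 0.02 with quantile normalization, and -0.09 against 0.01 with the gene length trend removed. Without the white-light libraries numbered 2 the AG peptides were split into 4 positive and 7 negative, with a median of -0.24. With the trend of each library with gene length removed, 2 were positive and 9 negative, with a median of -0.22 against 0.01 over all tested genes. AGP21 had an interaction of -0.62, with a 95% interval from -1.42 to 0.19 (limma adjusted p = 0.634), and AGP12 one of -0.57, from -1.36 to 0.22 (limma adjusted p = 0.64).

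Genes that act on the proteins and chains of the family were examined as a list of 37 loci, covering prolyl hydroxylation, transfer of galactose, glucuronic acid, fucose and arabinose, sugar nucleotides, breakdown, the GPI anchor and the FEI kinases. Of the 35 tested genes of this list 1 rose and 1 fell in bzip59, or 2.86% each, against 6.49% and 3.7% of all tested genes. In Col-0 limma called 0 of the 35, against 9.92% of all tested genes, and 6 had an unadjusted p under 0.05, against 22.6% of all tested genes. The list median was 0.15 in bzip59 against 0.11 over all tested genes, and 0.03 in Col-0 against -0.01. GALT3 (AT3G06440), which adds the first galactose to hydroxyproline, rose in bzip59 to 10.2 ± 1.42 TPM in shade against 7.21 ± 0.46 TPM in white light (SD, n = 3 each, log2 0.44, limma adjusted p = 0.0389). The locus AT1G27930, listed as a probable methyltransferase, fell in bzip59 to 17 ± 1.05 TPM in shade against 23.3 ± 1.76 TPM in white light (SD, n = 3 each, log2 -0.43, limma adjusted p = 0.0305). The GALT3 call ended in 17 of 23 alternatives, with limma adjusted p up to 0.218. Among them were TMM factors (0.106), the replicate block (0.0525), and leaving out shade library 1, 2 or 3 of bzip59 (0.0592, 0.0727 and 0.173) or its white-light library 2 or 3 (0.0884 and 0.11). Leaving out shade library 2 or 3 of Col-0 (limma adjusted p = 0.0557 and 0.0628) or its white-light library 1 or 3 (0.0528 and 0.0537) also ended it. The AT1G27930 call ended in 7 of 23, among them leaving out shade library 1 or 3 of bzip59 (limma adjusted p = 0.127 and 0.11), its white-light library 1 or 2 (0.0509 and 0.0654) or shade library 3 of Col-0 (0.0505). None was called by limma between genotypes, where 0.0254% of all tested genes were called in white light and 0.0406% in shade. At an unadjusted p under 0.05 there were 2 of the 35 in white light, against 15.5% of all tested genes, and 0 in shade, against 2.71%.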

How the data were processed

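Per the file headers, the authors deposited transcript-level TPM. Reads were trimmed with fastp and cutadapt, aligned with HISAT2 to TAIR10 and tested with DESeq2, per the submitters' processing notes. The tool that computed TPM and the strandedness are not given in the sources used here, so values of overlapping or closely paralogous genes are uncertain. TPM of 54013 transcripts were summed to 32833 genes. The 19693 genes averaging 1 TPM or more were fitted with limma 3.58.1 (R 4.3.3) as log2(TPM + 1) with an intensity trend and 4 group means, with Benjamini-Hochberg adjustment over all tested genes and a threshold of 0.05. Fold changes on this scale understate changes of low genes. TMM factors were computed on the TPM of the tested genes. The fit was also run on simulated data with independent noise for each gene. Those data lacked the library trends with gene length seen here, so they do not show how the fit handles them.

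Members, subgroups, marker lists and the pathway list were chosen with earlier results of these data known. Values per library are given for members called in any comparison and for the 4 with the highest mean; no uncalled member reached a log2 change of 1, which would also have been named. AGP4, AGP30, AGP31, FLA5 and FLA15 were added after their values were seen. Gene lengths came from RefSeq (TAIR10.1), which matched all 51 members. No sequences are shown.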

Additional observations from a re-analysis of the deposited data

How the results depend on the processing

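The count of members called for shade was 9 in bzip59 and 11 in Col-0, and leaving out each library in turn gave 6 to 11 and 8 to 12. In bzip59 the count of members that rose was 5 without bzip59 shade 1 or bzip59 shade 3, against 8 with all libraries. With only the Col-0 libraries fitted, 7 members passed for Col-0 shade, with 6 rising, against 5.92% of all tested genes; fewer samples then estimate the spread. The other alternatives were pseudocounts of 0.5 and 0.1, no filter, a mean of at least 5 TPM, TMM factors, quantile normalization, removal of the gene length trend (chosen after seeing the data), the bzip59 libraries alone, and leaving out the white-light libraries numbered 2 or Col-0 shade 1 with bzip59 shade 2. They gave 8 to 11 members in bzip59 and 9 to 13 in Col-0. No called AGP or FLA gene changed direction under any of these 23 alternatives. Counts for both genotype comparisons and the interaction were 0 throughout. With a replicate block the counts were 9 in bzip59 and 11 in Col-0, with FLA2 gained and AGP20 lost in bzip59. The numbers were not taken as pairing the samples, because they are not said to mark a shared batch. Of the 18 same-numbered pairs of libraries across the groups 3 had a correlation of their deviations over 0.1, with a range from -0.15 to 0.25. For 9 of 12 libraries the most similar library of another group had the same number. Whether same-numbered libraries share a batch is not known.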

Other observations

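Of the 51 AGP and FLA genes 43 have a single listed transcript, and in 7 of the 8 others the first transcript carried at least 89% of the gene's TPM. FLA1 (AT5G55730) was the most divided, with 15.9% of its TPM on transcript 2. That transcript measured 1.74, 16.8 and 2.21 TPM in bzip59 shade against 2.56, 0 and 7.36 TPM in bzip59 white light, while Col-0 gave 5.27, 6.72 and 0 TPM in shade against 0, 2.31 and 15.9 TPM in white light. Its high and low libraries were spread over all 4 groups, while the whole gene stayed between 21.2 and 43.6 TPM.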
